A study of Mus musculus with 31 samples.

Results

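The interferon-responsive genes are a set of 39 genes that cells switch on when interferons bind their receptors, named by gene symbol and followed here through mouse gastrocnemius muscle. A row of the deposited gene counts was matched to 38 of the 39 among 39017 gene identifiers. No row was matched to Gbp6, which is not analysed here, and Oas3 stayed at 0 to 7 counts per library and was left out by the filter on low counts, so 37 members were tested among 14024 genes. By role they comprise 15 antiviral effectors, 6 genes of transcription and signalling, 7 genes of ubiquitin-like and ADP-ribose modification, 7 interferon-inducible GTPases and 4 genes of antigen presentation.

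RNA was sequenced from muscle of mice that lacked MuRF1 (MuRF1 -/-), a muscle ubiquitin ligase encoded by Trim63, and of wild-type mice, in both sexes and on both diets. All mice ate chow after weaning. The high-fat groups were changed at 8 weeks of age to a diet with 45% fat from lard, and muscle was collected from all groups at 30 weeks. The 30 libraries used came from 3 male knockout, 4 male wild-type, 3 female knockout and 4 female wild-type mice on the high-fat diet, and from 4 mice of each of those kinds on chow. The labels name neither strain nor allele, and loss of MuRF1 is taken from the labels as present throughout the animal. Each library is labelled with its own animal number and was taken as 1 animal.

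Type I interferons act through a complex that includes STAT2 and IRF9 and binds the interferon-stimulated response element (ISRE) in promoters, and interferon gamma acts at the gamma-activated site (GAS). The genes they switch on degrade or block viral RNA, load peptides onto MHC class I, and attach ISG15 or ADP-ribose to proteins, while USP18 and SOCS1 damp the response. Muscle fibres, macrophages, endothelial cells and fibroblasts can all carry out this response.

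Promoters of the members were read for these 2 elements. The members were listed as interferon-responsive genes, so a high share with these elements is a trait of the list. Its relation to the changes that follow was not tested. The RefSeq table for GRCm38.p6 held 36 promoters of 31 members, each running from 250 bases before the start to 50 bases after it. The ISRE core GAAANNGAAA, searched on both strands, was found in 18 of the 36 member promoters (50%), against 3.44% of all 32851 promoters of that length in the table. The GAS letters TTCNNNGAA, which read the same on both strands, were found in 8 of the 36 (22.2%), against 8.30% of all promoters. The 2 patterns can overlap. The sequences of 5 members are shown, each the 150 bases that end at the base before the start, with ISRE cores and GAS matches in capitals and all else in lower case. B2m (chr2:122147537-122147686), Gbp2 (chr3:142620513-142620662), Gbp7 (chr3:142530186-142530335) and Tap1 (chr17:34187406-34187555) are among the members most clearly lower in male knockouts on chow, and Igtp (chr11:58199406-58199555) is the member with the clearest difference between the sexes. All 5 lie on the plus strand.
B2m: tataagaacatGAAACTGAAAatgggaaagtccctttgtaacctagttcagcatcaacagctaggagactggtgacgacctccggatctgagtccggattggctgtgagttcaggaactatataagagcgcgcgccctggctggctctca
Gbp2: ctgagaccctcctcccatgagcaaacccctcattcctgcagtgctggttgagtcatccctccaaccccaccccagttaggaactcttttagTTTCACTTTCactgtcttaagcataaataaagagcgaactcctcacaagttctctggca
Gbp7: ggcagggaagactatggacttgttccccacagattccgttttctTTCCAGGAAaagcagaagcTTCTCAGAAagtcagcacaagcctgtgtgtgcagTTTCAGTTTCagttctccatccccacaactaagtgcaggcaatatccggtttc
Tap1: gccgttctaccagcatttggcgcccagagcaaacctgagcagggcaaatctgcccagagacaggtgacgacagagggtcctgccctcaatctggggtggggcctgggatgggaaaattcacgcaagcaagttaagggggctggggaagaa
Igtp: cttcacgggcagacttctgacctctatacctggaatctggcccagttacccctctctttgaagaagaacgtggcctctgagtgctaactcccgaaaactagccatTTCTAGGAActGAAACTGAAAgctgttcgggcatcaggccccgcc
The ISRE core began 139 bases before the start in B2m, 59 in Gbp2, 53 in Gbp7 and 34 in Igtp. Gbp7 had GAS matches beginning 106 and 87 bases before the start, and Igtp had one beginning 45 bases before it. Neither pattern was found in the 300 bases of Tap1, nor in those of H2-D1, whose sequence is not shown. The table held no promoter of Parp14, Oas2 or Gbp9, which are also among the members most clearly lower in male knockouts on chow.

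The libraries held 9342028 to 14919379 counts, so 3 counts corresponded to 0.201 to 0.321 CPM (counts per 1000000 counts of the library). Trim63 lay between 0.469 and 6.24 CPM in the 14 knockout libraries and between 109 and 254 CPM in the 16 wild-type libraries, with 3 of the wild types at 50 to 150 CPM. Values per library in the following paragraphs are CPM after TMM scaling, and limits from a count of 0 cover counting error only. In bulk muscle, fewer cells of a type and less RNA per cell cannot be told apart.

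Per kilobase of exon, the genes of MHC class I led the set, with B2m (ENSMUSG00000060802), the light chain, at 87.9 CPM per kilobase over the 30 libraries, followed by the heavy chains H2-D1 (ENSMUSG00000073411) at 34.3 and H2-K1 at 26.4. Ifi27, a mitochondrial protein induced by type I interferon, followed at 18.7 CPM per kilobase, and Igtp, a GTPase that acts on the vacuoles of intracellular parasites, at 8.58. The lowest tested member was Ifi44 at 0.157 CPM per kilobase, and Oas3 was at 0.0236. Levels of Gbp, Oas and H2 genes may hold reads of near-identical copies, and those of Dtx3l and Parp9, which overlap head to head on opposite strands, may share reads. Igtp overlaps the gene Irgm2 on the same strand, and Gbp9 overlaps Gbp4 and Gbp8 on the same strand, so their levels may share or lose reads.

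In males on chow, interferon-responsive genes were lower in knockouts. Of the 37 tested members 16 fell and 0 rose (by edgeR, adjusted p below 0.05, here termed called), 43.2%, against 6.95% of all tested genes called in either direction and 5.31% called lower. The median log2 fold change of the members was -0.67, against -0.02 for all tested genes, and 36 of the 37 had a negative estimate. In 12 of the 37 the 4 knockout libraries all lay below the 4 wild-type ones, as held for 6.27% of all genes. By DESeq2 16 members were called, all lower.

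Every one of the 4 antigen presentation members fell. B2m was at 49.2, 44.9, 46.7 and 66.3 CPM in male knockouts on chow, against 69.0, 83.0, 85.1 and 71.8 CPM in wild types, a log2 fold change of -0.58 ± 0.12 (SE, adjusted p = 0.00522). The 2 groups did not overlap, and knockout 4 was nearest to the wild types. H2-D1 was at 48.4, 47.3, 57.7 and 79.1 CPM in knockouts, against 73.4, 120, 95.7 and 79.0 CPM in wild types (-0.66 ± 0.16, adjusted p = 0.0132). Here knockout 4 lay above 2 of the wild types. Tap1 (ENSMUSG00000037321), a subunit of the transporter that brings peptides to MHC class I, was at 1.62, 1.73, 3.12 and 3.01 CPM in knockouts, against 4.39, 6.68, 5.78 and 4.96 CPM in wild types, with no overlap (-1.18 ± 0.26, adjusted p = 0.00713). H2-K1 changed by -0.52 ± 0.15 (adjusted p = 0.0271).

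Of the 6 tested GTPases, 4 fell, and these were the 4 guanylate-binding proteins, which attack membranes of intracellular pathogens. Gbp7 was at 2.64, 1.43, 2.52 and 3.40 CPM in knockouts on chow, against 4.85, 6.34, 5.55 and 4.80 CPM in wild types (-1.09 ± 0.25, adjusted p = 0.0104). Gbp2 was at 3.45, 2.85, 3.82 and 4.59 CPM in knockouts, against 5.93, 8.40, 7.86 and 5.84 CPM in wild types (-0.92 ± 0.21, adjusted p = 0.0102). Neither gene's groups overlapped. Gbp9 was at 3.35, 2.85, 3.64 and 7.52 CPM in knockouts, against 8.24, 11.4, 10.1 and 7.84 CPM in wild types (-1.09 ± 0.26, adjusted p = 0.0116), and knockout 4 again lay close to the wild types. Gbp3 changed by -0.93 ± 0.29 (adjusted p = 0.0451). The other two GTPases, of the immunity-related family, had changes of -0.20 ± 0.11 for Irgm1 (adjusted p = 0.294) and -0.09 ± 0.13 for Igtp (adjusted p = 0.739).

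Among 7 members that modify proteins, Parp14 (ENSMUSG00000034422), an ADP-ribosyltransferase, was called, and it had the smallest p of all members. It was at 6.49, 3.98, 5.73 and 8.07 CPM in knockouts, against 13.3, 14.6, 13.9 and 10.9 CPM in wild types (-1.11 ± 0.17, adjusted p = 0.000505). The groups did not overlap. Isg15, the ubiquitin-like modifier itself, had a change of -1.24 ± 0.42 (adjusted p = 0.0691), and Usp18, which removes it from proteins, of -0.31 ± 0.19 (adjusted p = 0.355). Trim21 and Trim25, ubiquitin ligases that act in antiviral sensing, had changes of -0.80 ± 0.28 (adjusted p = 0.0751) and -0.38 ± 0.13 (adjusted p = 0.075). Dtx3l and Parp9, which form a ligase complex, had changes of -0.39 ± 0.17 and -0.52 ± 0.20 (adjusted p = 0.15 and 0.0994).

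Of 14 tested antiviral effectors 5 fell. Oas2 (ENSMUSG00000032690), which makes the oligoadenylate that activates RNase L, was at 1.72, 1.33, 3.12 and 2.29 CPM in knockouts, against 3.78, 6.06, 5.24 and 4.48 CPM in wild types, without overlap (-1.19 ± 0.24, adjusted p = 0.00394). Its relative Oasl2 changed by -1.05 ± 0.27 (adjusted p = 0.0188), Ifit2, which binds foreign RNA, by -0.95 ± 0.25 (adjusted p = 0.0192), Xaf1 by -0.81 ± 0.25 (adjusted p = 0.0409) and Ifi44 by -1.63 ± 0.46 (adjusted p = 0.0297). Ifi44 was scarce, at 0.0868 to 2.02 CPM over the 30 libraries, and its lowest library held 1 count. Ifi27 and Ifi35 had the smallest changes of the effectors, 0.00 ± 0.12 and -0.07 ± 0.16 (adjusted p = 0.999 and 0.828).

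Of 6 members in transcription and signalling, Irf9, the DNA-binding part of the type I interferon complex, fell by 0.63 ± 0.18 on the log2 scale (adjusted p = 0.0282). Ifih1, the sensor of double-stranded RNA also called MDA5, fell by 0.76 ± 0.24 (adjusted p = 0.0499). The partner Stat2 had a change of -0.47 ± 0.18 (adjusted p = 0.118), and the transcription factors Irf7 and Irf1 had changes of -0.88 ± 0.32 and -0.45 ± 0.19 (adjusted p = 0.094 and 0.153). The feedback inhibitor Socs1 was nearly absent in male knockouts on chow, at 0 to 0.306 CPM, against 0.08 to 1.31 CPM in wild types, and its estimate of -2.50 ± 1.37 was not called (adjusted p = 0.29).

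The call rested on few animals. Without male knockout chow 2, 3 members were called, and the counts were 6 without knockout 1, 8 without knockout 3, 9 without wild type 2 and 8 without wild type 3, while 21 were called without knockout 4.

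**Figure D1:**
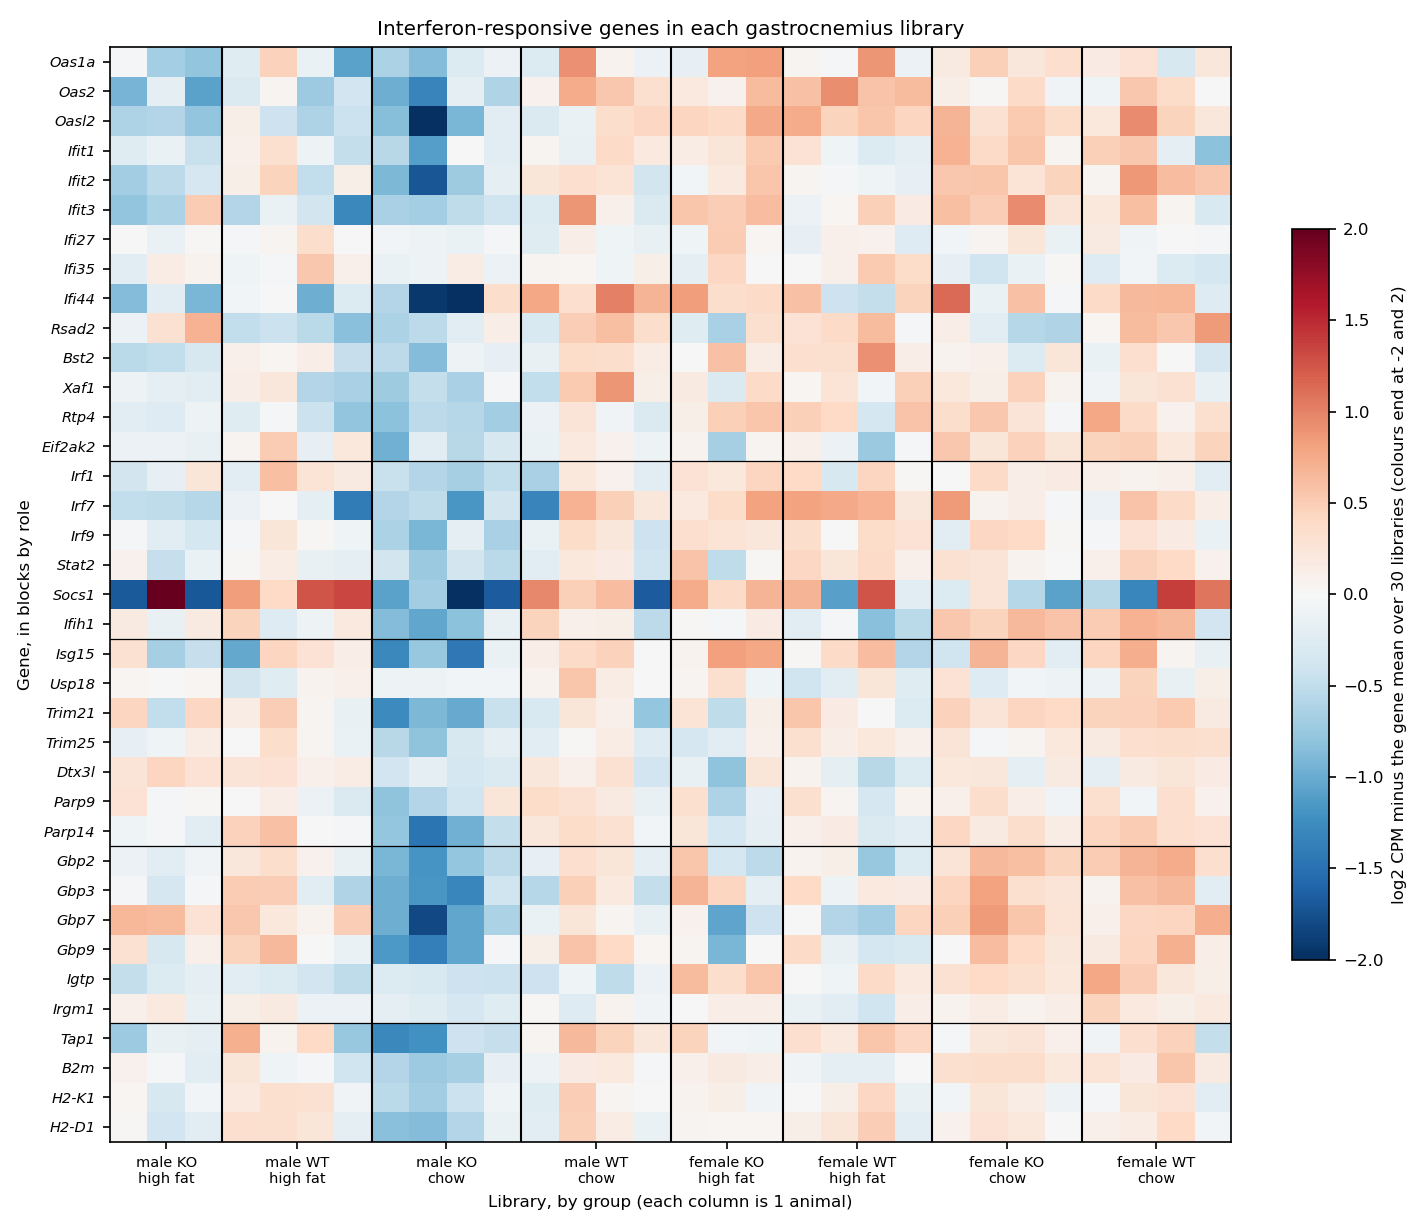
Colour gives log2 CPM minus the gene's mean over 30 libraries for 37 members (rows, in blocks by role) in each library (columns, by group). The 4 male knockout libraries on chow form the blue block, with 0, 0, 2 and 3 of the 37 members above their own mean.

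**Figure D2:**
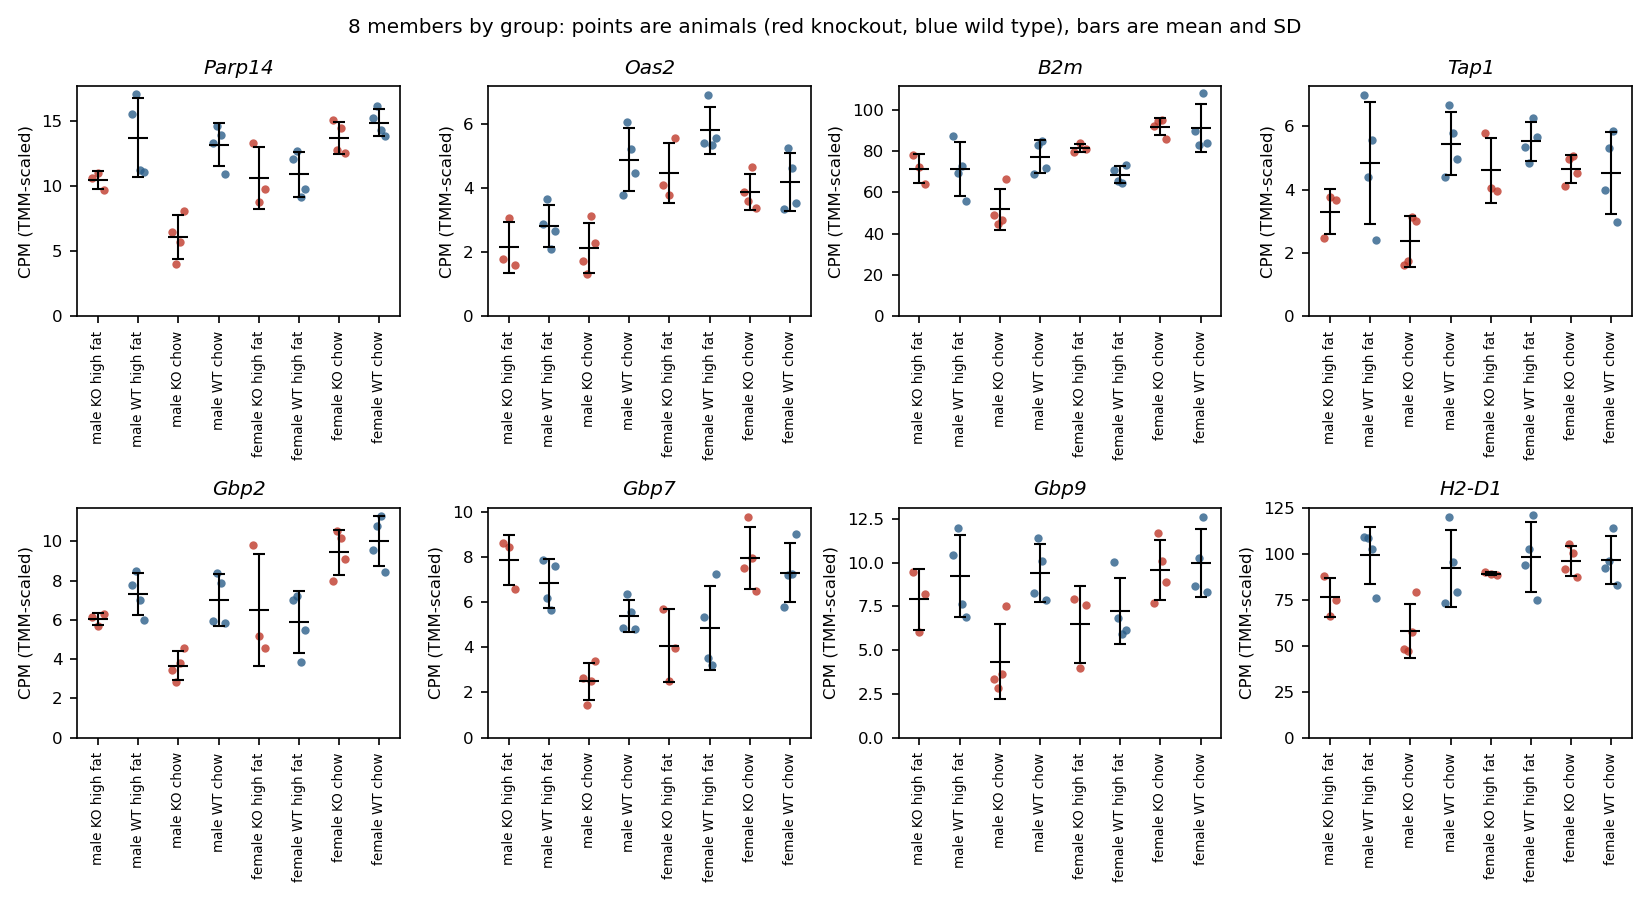
CPM after TMM scaling (vertical axes, from 0) of 8 members in each of 8 groups, with 1 point per animal and the mean and SD as bars. Parp14 averages lowest in male knockouts on chow, where its 4 libraries lie between 3.98 and 8.07 CPM.

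A library mean over the 37 members, of log2 CPM centred on each gene, was -0.70, -0.86, -0.64 and -0.29 in male knockouts on chow, against -0.09, 0.33, 0.24 and -0.12 in male wild types on chow. In the other 6 groups it ran from -0.24 to 0.36, so all 4 male knockouts on chow lay below every library of the other groups, knockout 4 by the least. The pooled SD within groups was 0.157.

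The other genes of the pathway were counted in lists. The interferon genes themselves were barely read. Ifnb1, Ifnl2, Ifne, Ifna2 and Ifna4 had 0 counts in all 30 libraries, which allows up to 0.201 to 0.321 CPM per library, and Ifng had 3 counts in total and Ifnk 1. Of 5 tested receptor genes 0 were called by edgeR in males on chow, with 4 at an unadjusted p below 0.05. Of 13 other signalling genes 1 fell, the phosphatase gene Ptpn6 (-1.16 ± 0.35, adjusted p = 0.0398). Of 11 nucleic acid sensors 3 fell, among them Tmem173, which encodes STING (-1.58 ± 0.26, adjusted p = 0.000751), and Ddx58, which encodes RIG-I (-0.88 ± 0.20, adjusted p = 0.00805). Of 39 further interferon-stimulated genes 15 fell, with Samd9l at -0.99 ± 0.21 (adjusted p = 0.00633), and of 18 further antigen presentation genes 10 fell, among them the class II gene H2-Aa (-1.13 ± 0.22, adjusted p = 0.00399) and the immunoproteasome subunit Psmb9 (-1.06 ± 0.25, adjusted p = 0.0114). Median changes were -0.77 for the sensors, -0.67 for the further interferon-stimulated genes and -0.72 for antigen presentation.

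Markers of some other cell types moved with these genes. In males on chow 11 of 16 macrophage markers fell (median -1.06), among them Ctss, Lyz2 and Csf1r, as did 10 of 10 fibroblast markers (median -1.02) and 7 of 12 endothelial markers (median -0.59). By edgeR 0 of 7 adipocyte and 0 of 6 tested neutrophil and dendritic markers were called (medians -0.74 and -0.63). Of these, 0 had an unadjusted p below 0.05. Macrophage markers summed to 81.1, 53.0, 78.7 and 137 CPM in male knockouts on chow, against 170, 193, 210 and 123 CPM in male wild types on chow, and fibroblast markers to 407, 253, 398 and 794 CPM, against 1104, 944, 1278 and 762 CPM. Knockout 4, the library with the least reduced members, held the most of both, and wild type 4 the least of both in its group. Lymphocyte markers were scarce, with all 15 together at 0.781 to 6.03 CPM and 13 of 15 at 0 in at least 1 library. Of 16 macrophage markers 2 were at 0 in at least 1 library, and none of the fibroblast or endothelial markers were. Muscle fibre markers had a median change of 0.29, with 3 of 8 at an unadjusted p below 0.05 and 0 called by edgeR. The part of these cells in the change of the interferon-responsive genes was not tested.

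**Figure D3:**
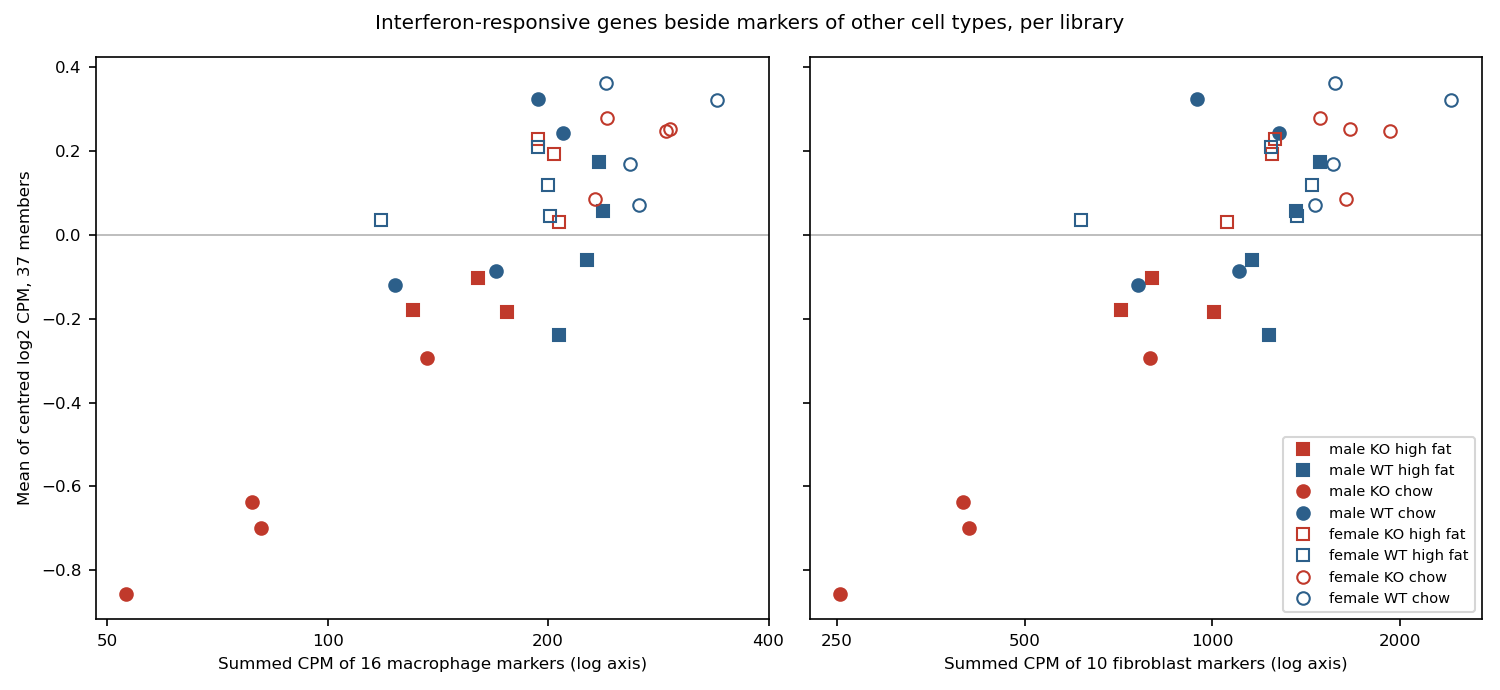
Each point is a library, with the mean centred log2 CPM of 37 members (vertical axis) against the summed CPM of 16 macrophage markers (left) or 10 fibroblast markers (right) on log axes. Red marks knockout, blue wild type, filled males, open females, squares high fat and circles chow. The 3 lowest libraries, male knockouts on chow between -0.86 and -0.64, also have the 3 lowest sums of both marker lists.

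In the other 3 settings the same genotype comparison called no member by edgeR. In males on high fat 0 of 37 were called, with 5 at an unadjusted p below 0.05 and 0 by DESeq2, and 0.264% of all genes were called. In females on high fat 0 were called, with 2 at an unadjusted p below 0.05 and 0 by DESeq2, and the share of all genes was 0.0713%. In females on chow 0 were called, with 1 at an unadjusted p below 0.05 and 0 by DESeq2, against 0.0927% of all genes. The members' median changes were -0.19 in males on high fat, 0.03 in females on high fat and -0.01 in females on chow.

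Parp14, the member with the smallest p in males on chow, was not called in these settings. It was at 10.6, 11.0 and 9.67 CPM in male knockouts on high fat, against 15.5, 17.0, 11.2 and 11.1 CPM in male wild types on high fat (-0.39 ± 0.18, adjusted p = 0.442). In females on high fat it was at 13.3, 8.75 and 9.79 CPM in knockouts, against 12.1, 12.7, 9.14 and 9.73 CPM in wild types (-0.04 ± 0.18, adjusted p = 0.963). On chow it was at 15.0, 12.8, 14.5 and 12.5 CPM in female knockouts, against 15.2, 16.1, 14.3 and 13.8 CPM in female wild types (-0.12 ± 0.16, adjusted p = 1). The groups overlapped in both female comparisons, and the 3 male knockouts on high fat lay just below the male wild types on that diet. Rsad2, which encodes the antiviral protein viperin, had the smallest p among members in 2 of the 3 settings, with 0.95 ± 0.27 in males on high fat (adjusted p = 0.133) and -0.86 ± 0.24 in females on chow (adjusted p = 0.24).

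**Figure D4:**
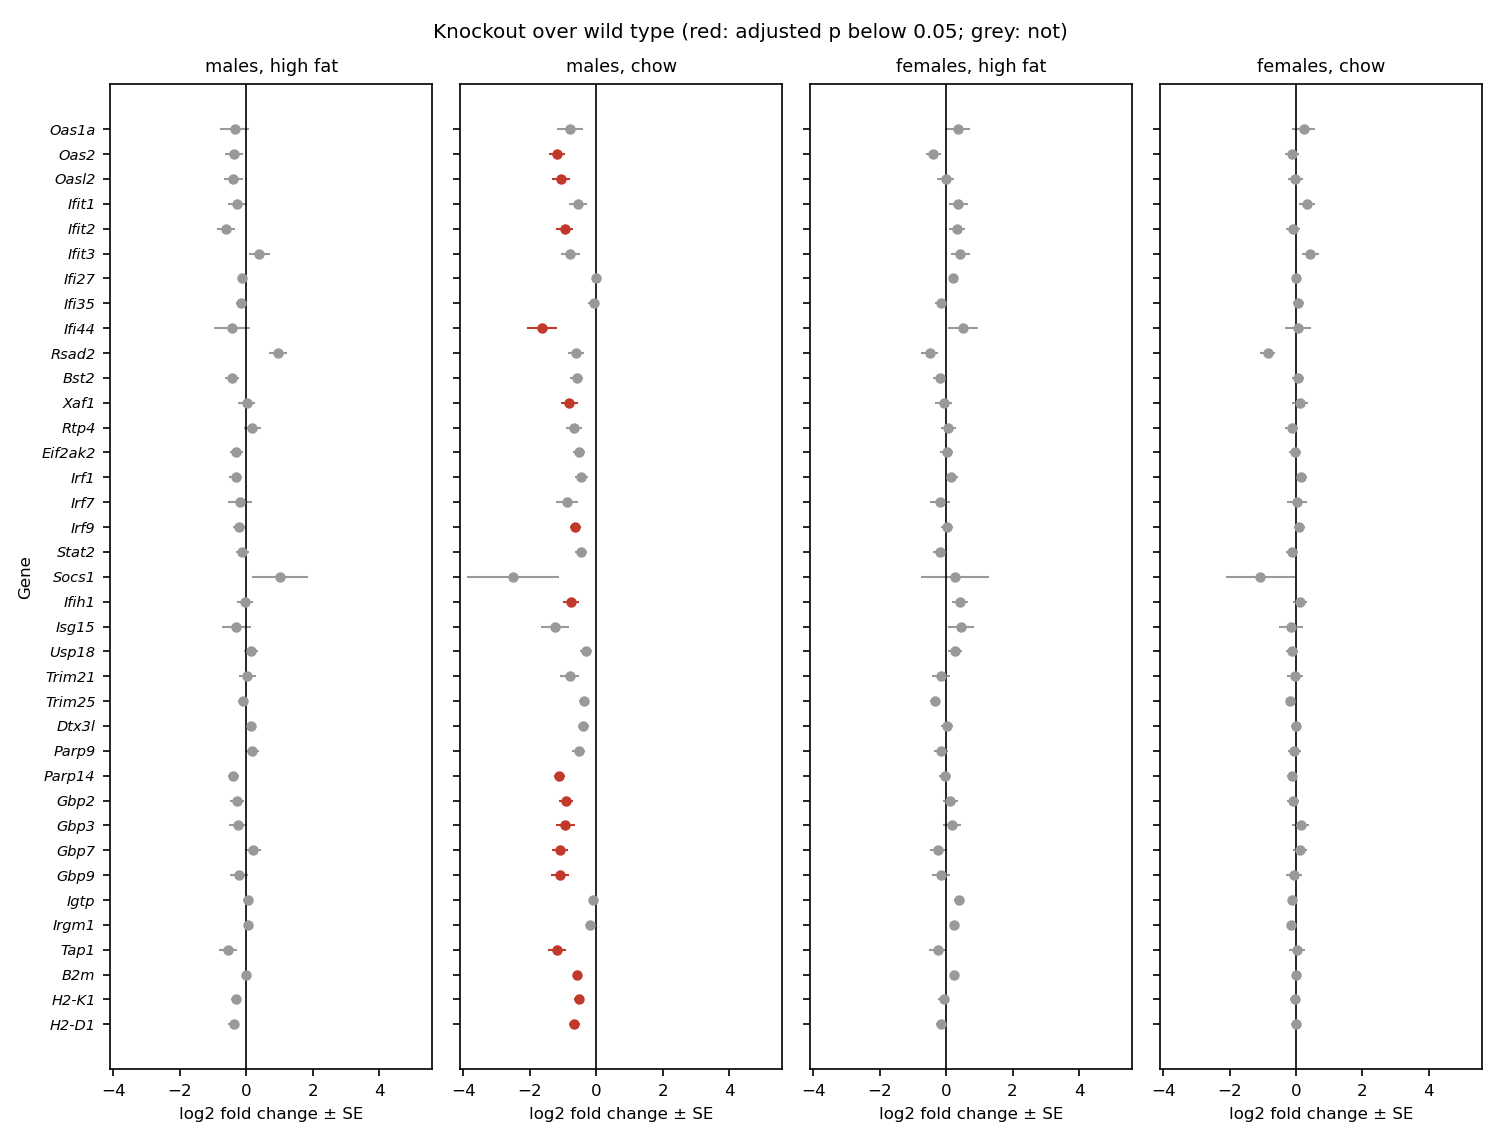
Log2 fold change of knockout over wild type with its SE (horizontal axis) for 37 members (rows) in 4 settings (panels). Red marks the 16 members called in males on chow, and the other panels hold no called member.

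The differences between these settings were tested directly. The genotype effect in males minus that in females, both on chow, was called for 0 members by edgeR, with 22 at an unadjusted p below 0.05, for 2 by DESeq2, and for 0.0428% of all genes. The median difference was -0.77, and Parp14 had -0.99 ± 0.23 (adjusted p = 0.0782), Gbp7 -1.22 ± 0.33 (adjusted p = 0.122) and B2m -0.58 ± 0.17 (adjusted p = 0.139). It was called for 7 members without male knockout chow 4 and for 1 without male wild type chow 4. In males the genotype effect on high fat minus that on chow was called for 0 members by edgeR, with 15 at an unadjusted p below 0.05, for 1 by DESeq2 and for 2 without male knockout chow 4. In that contrast 0.0% of all genes were called by edgeR and 41 genes by DESeq2. The median was 0.62, with Rsad2 at 1.55 ± 0.36 (adjusted p = 0.114), Gbp7 at 1.29 ± 0.35 (adjusted p = 0.186) and B2m at 0.58 ± 0.18 (adjusted p = 0.239). Averaged over diets, the difference between the sexes was called for 0 members by edgeR, with 22 at an unadjusted p below 0.05, for 2 by DESeq2, for 4 without male knockout chow 4, and for 0.0285% of all genes. Averaged over sexes, the difference between the diets was called for 0 members, with 10 at an unadjusted p below 0.05, for 1 by DESeq2 and for 0.107% of all genes. By edgeR, no member was called as differing in its genotype effect between males and females or between the diets.

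Averaged over the 4 settings with equal weight, the genotype effect was called lower for 5 members and higher for 0, against 4.39% of all genes in either direction and 2.83% lower. These were Parp14 (-0.42 ± 0.09, adjusted p = 0.00461), Oas2 (-0.52 ± 0.12, adjusted p = 0.0118), Tap1 (-0.49 ± 0.13, adjusted p = 0.0249), Trim25 (-0.25 ± 0.07, adjusted p = 0.0287) and H2-D1 (-0.30 ± 0.08, adjusted p = 0.0363). The median of all members was -0.23, and 34 of 37 estimates were negative. Oas2 was at 1.78, 3.06 and 1.61 CPM in male knockouts on high fat, against 2.87, 3.68, 2.08 and 2.67 CPM in male wild types on that diet. In females on high fat Oas2 was at 4.09, 3.78 and 5.55 CPM in knockouts, against 5.40, 6.91, 5.35 and 5.56 CPM in wild types, and on chow at 3.87, 3.61, 4.65 and 3.38 CPM in knockouts, against 3.35, 5.25, 4.64 and 3.54 CPM in wild types. Of the 4 settings Oas2 had its largest estimated change in males on chow. The count was 3 without male wild type chow 3, male wild type high fat 1 or 2, male knockout chow 1 or 2, or female knockout high fat 2 or 3, and 9 without male knockout chow 4. Of the macrophage markers 6 of 16 and of the fibroblast markers 6 of 10 fell in the same average.

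Some members were higher on high fat in male knockouts. Of 37 tested, 6 rose and 0 fell, 16.2%, against 5.83% of all genes called in either direction and 4.01% called higher. The median was 0.39, against 0.05 for all genes, and 35 of 37 estimates were positive. The male knockouts on chow are also the low group of the genotype comparison, so the 2 comparisons share those 4 libraries. Of the 16 members called there and the 6 called here, 3 were in both (B2m, Gbp7 and Parp14).

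Gbp7 was at 8.61, 8.41 and 6.59 CPM in male knockouts on high fat, against 2.64, 1.43, 2.52 and 3.40 CPM on chow (1.63 ± 0.26, adjusted p = 0.00193). Trim21, a ubiquitin ligase that binds antibody-coated virus, was at 3.34, 1.67 and 3.30 CPM on high fat, against 0.912, 1.22, 1.13 and 1.74 CPM on chow (1.11 ± 0.29, adjusted p = 0.0241). Gbp7 separated fully, while for Trim21 the second high-fat library lay below the highest chow library. Dtx3l was at 14.3, 16.1 and 14.6 CPM on high fat, against 9.12, 10.4, 9.28 and 9.73 CPM on chow, without overlap (0.64 ± 0.18, adjusted p = 0.0311). Parp14 changed by 0.77 ± 0.19 (adjusted p = 0.0177) and B2m, at 78.2, 72.2 and 64.0 CPM on high fat, by 0.46 ± 0.13 (adjusted p = 0.0333).

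The sixth, Socs1, was called on 1 library, with 8.00 CPM in male knockout high fat 2 and 0.0776 and 0.0733 CPM in the other two, against 0.203, 0.306, 0 and 0.0791 CPM on chow (4.23 ± 1.22, adjusted p = 0.0429). Oas2 and Ifi44, called in the genotype comparison, had diet changes of 0.01 ± 0.28 and 0.05 ± 0.58 in male knockouts (adjusted p = 0.986 and 0.972). In 11 of 37 members the high-fat libraries all lay above the chow ones, as held for 14.4% of all genes.

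In the same comparison 5 of 16 macrophage markers, 2 of 10 fibroblast markers and 8 of 39 further interferon-stimulated genes rose, against 4.01% of all genes. By edgeR 0 of 18 further antigen presentation genes, 1 of 11 sensors and 1 of 12 endothelial markers rose. Of 8 muscle fibre markers 1 fell, and all 8 had negative estimates. Macrophage markers summed to 176, 160 and 131 CPM in male knockouts on high fat, against 53.0 to 137 CPM on chow. The part of these cells was not tested. The number of members called was 2 without male knockout chow 1, 1 without male knockout chow 2 or 3, 12 without male knockout chow 4, and 2 without male knockout high fat 1 or 2. In male wild types high fat against chow called 0 members by edgeR, with 5 at an unadjusted p below 0.05, and 1 by DESeq2, against 0.349% of all genes. The smallest p there was that of Rsad2, at -0.93 ± 0.25 (adjusted p = 0.0944), followed by Oas2 at -0.80 ± 0.23 (adjusted p = 0.122).

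**Figure D5:**
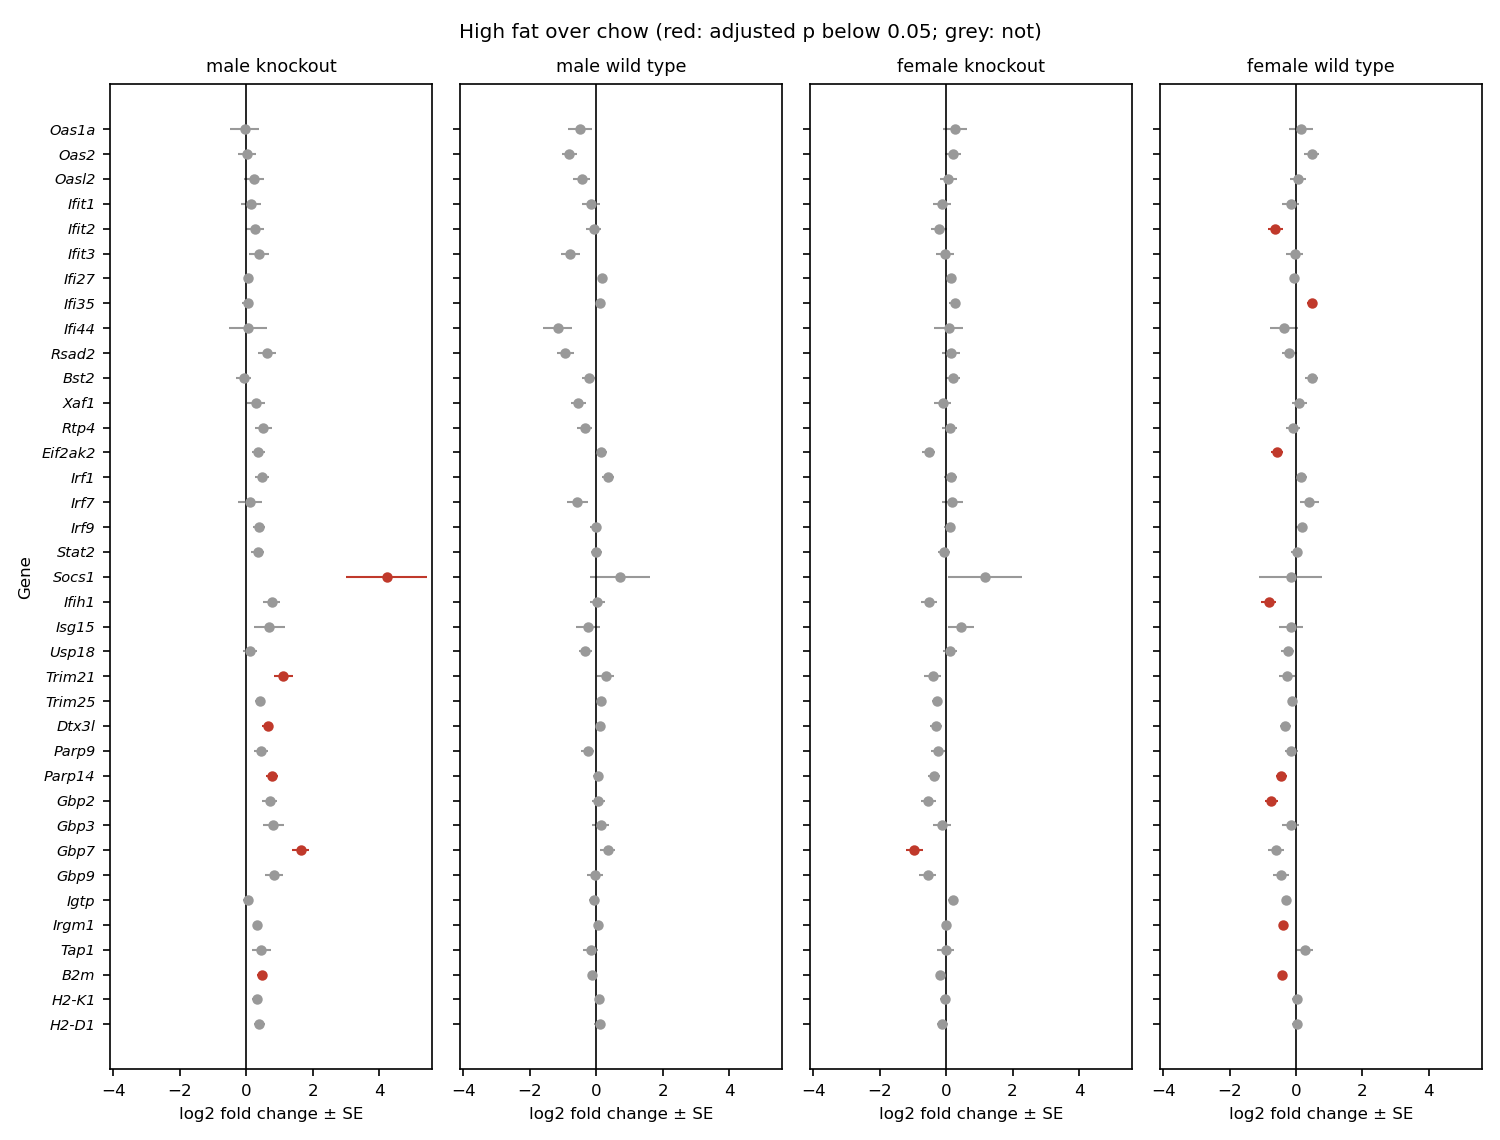
Log2 fold change of high fat over chow with its SE (horizontal axis) for 37 members (rows) in 4 strata (panels). Red marks called members, 6 higher in male knockouts, 0 in male wild types, 1 lower in female knockouts, and 7 lower and 1 higher in female wild types.

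In female wild types most called members were lower on high fat. On that diet 7 members fell and 1 rose, 21.6% of 37, against 25.4% of all genes called in either direction. In either direction the members' share was no higher than that of all genes. Called lower alone, 7 of 37 was above the 12.5% of all genes, before the correction for GC content given below. Gbp2 was at 7.01, 7.24, 3.88 and 5.46 CPM on high fat, against 9.55, 10.8, 11.3 and 8.42 CPM on chow, without overlap (-0.75 ± 0.20, adjusted p = 0.00683). Ifih1 was at 3.86, 4.50, 2.49 and 3.08 CPM on high fat, against 6.56, 7.47, 7.26 and 3.45 CPM on chow (-0.82 ± 0.22, adjusted p = 0.00915). The fourth chow library was the exception for Ifih1 and lay among the high-fat ones. Irgm1, a GTPase of the immunity-related family, was at 15.4, 14.4, 12.7 and 18.5 CPM on high fat, against 22.9, 19.4, 18.3 and 19.2 CPM on chow (-0.39 ± 0.11, adjusted p = 0.00959). B2m was at 70.7, 65.6, 64.4 and 73.4 CPM on high fat, against 89.9, 82.9, 108 and 84.1 CPM on chow, without overlap (-0.41 ± 0.12, adjusted p = 0.012). Eif2ak2, the kinase PKR that halts translation, Ifit2 and Parp14 fell by 0.56 ± 0.18, 0.63 ± 0.22 and 0.44 ± 0.16 on the log2 scale (adjusted p = 0.0211, 0.0381 and 0.0428), and Ifi35 rose by 0.49 ± 0.16 (adjusted p = 0.0225).

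The diet changes of all genes in females followed GC content, with a median log2 change of -0.33 in the 10% of genes lowest in GC and 0.41 in the 10% highest in female wild types. With a correction for GC 1 member was called, Gbp2. Of 16 macrophage markers 8 fell in this comparison, and they summed to 118 to 201 CPM in female wild types on high fat, against 240 to 341 CPM on chow. Of 10 fibroblast markers 3 fell and 0 rose, and of 7 adipocyte markers 3 fell and 0 rose. Of 12 endothelial markers 5 were called higher and 0 lower, but estimates were positive for 6 and negative for 6, with a median of 0.07. These marker counts are without the correction for GC. The part of these cells in the change of the members was not tested. The counts of members were 4 without female wild type chow 3 or 4 and 3 without female wild type high fat 3. In female knockouts 1 member was called, against 19.2% of all genes. This was Gbp7, at 5.71, 2.49 and 3.97 CPM on high fat, against 7.52, 9.76, 7.96 and 6.48 CPM on chow, without overlap (-0.96 ± 0.25, adjusted p = 0.0113). That count was 4 without female knockout high fat 1, 0 without female knockout high fat 2, and 2 without female knockout high fat 3 or female wild type high fat 3.

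The diet effect in males minus that in females, averaged over genotypes, was called for 13 members, 11 positive and 2 negative, 35.1%, against 45.2% of all genes in either direction and 23.6% positive. In either direction the members' share was below that of all genes, while 11 of 37 called positive was above the 23.6% of all genes. Gbp7 had the largest called difference (1.77 ± 0.24, adjusted p = 3.91e-06), followed by Ifih1 (1.07 ± 0.24, adjusted p = 0.000613), Trim21 (1.03 ± 0.26, adjusted p = 0.00198) and Gbp2 (1.02 ± 0.21, adjusted p = 0.000307). Parp14 had 0.81 ± 0.17 (adjusted p = 0.000381). In males Gbp7 was at 6.59 to 8.61 CPM in knockouts and 5.65 to 7.88 CPM in wild types on high fat, against 1.43 to 3.40 CPM in knockouts and 4.80 to 6.34 CPM in wild types on chow. In females it was at 2.49 to 5.71 CPM in knockouts and 3.23 to 7.25 CPM in wild types on high fat, against 6.48 to 9.76 CPM in knockouts and 5.77 to 9.00 CPM in wild types on chow. The negative differences were those of Oas2 (-0.73 ± 0.24, adjusted p = 0.0135) and of Bst2, which encodes tetherin (-0.50 ± 0.20, adjusted p = 0.0452). This contrast followed GC content as well, with medians of 0.39 in the lowest 10% of genes and -0.38 in the highest 10%, and 12 members were called after the correction. Of the 13, 10 were among these 12, Bst2, B2m and Gbp9 were no longer called, and H2-D1 and H2-K1 were called in addition. Of 16 macrophage markers 13 and of 10 fibroblast markers 7 were called positive. Of 12 endothelial markers 4 were called positive and 3 negative, and of 8 muscle fibre markers 0 positive and 5 negative. Averaged over sexes and genotypes the diet effect called 0 members by edgeR, with 3 at an unadjusted p below 0.05, and 0 by DESeq2, against 0.827% of all genes.

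Averaged over genotypes and diets, males had lower levels of most members than females. In that average 23 of 37 were lower in males and 0 higher, 62.2%, against 30.8% of all genes called in either direction and 17.4% called lower. The median was -0.30, against -0.02 for all genes. The gap was uneven between groups. Group means of the library mean over the members were -0.62 in male and 0.22 in female knockouts on chow. On high fat they were -0.16 in male and 0.15 in female knockouts. In wild types they were 0.09 in males and 0.23 in females on chow, and -0.02 and 0.10 on high fat. The pooled SD within groups was 0.157. The count ran from 19 to 25 when single libraries were left out, and no whole group was left out. Of the 16 members lower in male knockouts on chow 11 were among the 23, and the male knockouts on chow enter both comparisons.

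Igtp (ENSMUSG00000078853) differed most clearly. It ran from 11.8 to 15.8 CPM with a median of 13.6 in 15 male libraries, against 15.7 to 28.8 CPM with a median of 20.9 in 15 female libraries (-0.67 ± 0.07, adjusted p = 3.25e-09). The ranges met only at their edges, where the highest male lay just above the lowest female. Oasl2 ran from 0.51 to 4.64 CPM with a median of 2.50 in males, against 3.99 to 6.73 CPM with a median of 4.70 in females (-0.99 ± 0.13, adjusted p = 7.28e-07). Rtp4, a chaperone induced by interferon that restrains viral replication, ran from 1.22 to 2.75 CPM with a median of 1.88 in males, against 1.75 to 3.99 CPM with a median of 3.03 in females (-0.71 ± 0.11, adjusted p = 1.61e-05). Oas2 ran from 1.33 to 6.06 CPM with a median of 2.87 in males, against 3.35 to 6.91 CPM with a median of 4.64 in females (-0.68 ± 0.12, adjusted p = 5.11e-05). The ranges of these 3 overlapped. By role, 9 of 14 antiviral effectors, 4 of 6 genes of transcription and signalling, 4 of 7 modifiers, 3 of 6 GTPases and 3 of 4 antigen presentation genes were lower in males. Irf7, the amplifier of type I interferon, changed by -0.78 ± 0.16 (adjusted p = 0.000379).

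Markers of some other cell types differed between the sexes in the same direction. In males 14 of 16 macrophage, 10 of 10 fibroblast and 6 of 7 adipocyte markers were lower. Of 12 endothelial markers 3 were lower and 0 higher, 25%, against 30.8% of all genes called in either direction. Of 8 muscle fibre markers 3 were higher in males and 0 lower. Macrophage markers summed to 53.0 to 238 CPM (median 170) in males, against 118 to 341 CPM (median 232) in females, and fibroblast markers to 253 to 1488 CPM (median 944) in males, against 615 to 2421 CPM (median 1463) in females. Their part in the difference of the members was not tested. Of 5 tested receptor genes Ifngr2 was lower in males (-0.28 ± 0.05, adjusted p = 6.08e-05), and of 13 signalling genes 2 were higher, the kinase genes Jak2 (0.56 ± 0.06, adjusted p = 4.32e-09) and Jak1 (0.34 ± 0.05, adjusted p = 3.8e-06), and 3 were lower.

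Across all 16 contrasts, 4 tested members were called in none by edgeR. These were Ifi27, Parp9, Rsad2 and Usp18, and 22 of 37 were called in at least 1 of the 8 single settings.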

How the data were processed

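Gene counts were deposited by the authors as raw read counts per gene, 1 table per library with 39017 Ensembl identifiers. The reads were processed with bcl2fastq, featureCounts and build mm10, per the submitters' processing notes. For aligner, annotation release and strand setting the entry is not given in the sources used here. Symbols and coordinates came from GENCODE M21, and genes without a symbol held 0.107% of counts.

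Title and description carry different animal numbers in 19 records. Each library was grouped by whichever title holds the number in its description. This departs from its own title for 4 libraries, and 1 library whose number is in no title was left out. Of the 4, the library titled female wild type chow had Trim63 at 1.80, Xist at 1.15 and the Y-linked Ddx3y at 34.1 CPM. Those titled female knockout chow and female knockout high fat had Trim63 at 221 and 119 CPM. The library titled female wild type high fat had Trim63 at 0.87 CPM. The 42 pairs of libraries within groups held 0 identical pairs.

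Tests were edgeR quasi-likelihood fits (edgeR 4.0.16, R 4.3.3) to the counts (TMM scaling, filterByExpr with a minimum count of 10, robust, 1 mean for each of 8 groups), with p-values adjusted by Benjamini and Hochberg over 14024 genes at 0.05. Common dispersion was 0.0202. The SE is the log2 fold change divided by the square root of F. The steps were tested on simulated data.

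The members, lists and contrasts were chosen with earlier results of these data known. Shown in full are the 8 called members with the smallest p in males on chow and up to 4 in each other contrast, and up to 3 genes of a list. Other members are named to account for the set, and were chosen with their values known. Alternatives were DESeq2 1.42.0, other scaling, filters and groupings, a replicate block, and leaving out libraries. A correction for GC content and the omission of libraries high in skin or neutrophil markers were added after seeing the data.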

Additional observations from a re-analysis of the deposited data

Results flagged for a closer look

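Of 102 sets of values in groups of 4, 4 had 1 library far from the others, and chance alone gives about 1 in 20. Oas2 was highest in female wild type high fat 2, at 6.91 CPM, with the next library at 5.56 CPM. Dtx3l was lowest in female knockout chow 3, at 10.4 CPM, with the next at 13.5 CPM. Gbp9 was highest in male knockout chow 4, at 7.52 CPM, with the next at 3.64 CPM. The library mean of the members was lowest in female knockout chow 4, at 0.085, with the next at 0.248.

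The diet effect differed between males and females for 13 members by edgeR (log2 difference, males minus females). It was positive for Gbp7 (1.77), Ifih1 (1.07), Trim21 (1.03), Gbp2 (1.02), Gbp9 (0.91), Parp14 (0.81), Eif2ak2 (0.80), Dtx3l (0.68), B2m (0.47), Trim25 (0.47) and Irgm1 (0.39), and negative for Oas2 (-0.73) and Bst2 (-0.50). Of all genes 45.2% were called in this contrast. With the correction for GC content B2m, Gbp9 and Bst2 were no longer called.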

How the results depend on the processing

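Among repeated estimates for the fully shown members, in the contrasts that chose them, 1143 kept their direction and side of the threshold. Another 63 were no longer called and 0 reversed direction. Of the median changes over tested members, 658 moved by less than the pooled SD within groups of 0.157 and 6 by more. Other scaling (RLE) moved no count of called members by over 1.5 times.

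For genotype in males on chow, 16 members were called, against 9 with all 31 libraries grouped by their own titles. Under own titles, Trim63 levels went against the titled genotype in the 4 regrouped libraries and in the ungrouped one. The count was 8 without the 3 wild types with Trim63 at 50 to 150 CPM, 6 with only the 2 groups fitted, and 3 to 21 without single libraries. For diet in male knockouts, 6 became 11 with the ungrouped library kept by its title, and 1 to 12 without single libraries. For diet in female wild types, 8 became 0 by own titles, 5 without the 4 libraries with conflicting titles, 5 without the 3 wild types, 4 with only the 2 groups, 1 with the GC correction, 4 without 3 libraries high in Krt10, 4 without 2 libraries high in neutrophil markers, and 3 to 9 without single libraries. For diet in female knockouts, 1 became 2 by DESeq2, by own titles and with only the 2 groups, 0 without the libraries high in Krt10, and 0 to 4 without single libraries. For the genotype average, 5 became 3 without a filter, 1 by own titles, 3 with the ungrouped library kept, 2 without the libraries high in Krt10, 3 without those high in neutrophil markers, and 3 to 9 without single libraries. For sex, 23 became 15 by own titles. DESeq2 called 1 member for diet in male wild types, 1 for genotype by diet, 2 for genotype by sex, 1 for genotype by diet in males and 2 for genotype by sex on chow, where edgeR called 0. Without single libraries genotype by sex gave 0 to 4, genotype by diet in males 0 to 2 and genotype by sex on chow 0 to 7. With the GC correction Gbp3 was no longer called for genotype in males on chow, B2m for diet in male knockouts and H2-D1 for the genotype average. Bst2 was called in addition for genotype in males on chow and Gbp9 for the genotype average, so those counts stayed at 16 and 5. The causes were not tested.

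Replicate numbers are shared by the groups. Deviations from the group mean had a median correlation of 0.026 over 99 same-number pairs, from -0.318 to 0.457, with 33 pairs above 0.1. Over 294 other-number pairs the median was -0.006. These medians do not settle whether some libraries are paired. With a replicate block, 13 members were called for genotype in males on chow, 5 for diet in male knockouts and 9 for diet in female wild types, and no count moved by over 1.5 times. Members with few counts (Ifi44, Isg15, Oas1a, Socs1) limit what could be called at this depth.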

Other observations

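The library in no group, titled male knockout high fat and described with an animal number in no title, had Trim63 at 107 CPM, where the knockouts had 0.469 to 6.24 CPM. Of the 38 matched members 36 lay within the range of the other 30 libraries by total count. Gbp7, at 12.4 CPM, and Isg15, at 1.81 CPM, lay above it, with the highest of the others at 10.5 and 1.78 CPM.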
